A study of Mus musculus with 12 samples.

Results

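The semaphorins, plexins and neuropilins were taken from the count table as every gene whose name starts with Sema and a digit or with Plxn, together with Nrp1 and Nrp2. This gave 31 of 23079 genes, namely 20 semaphorins, 9 plexins and 2 neuropilins. The mice were C57BL/6, and their dopaminergic neurons were sampled in the substantia nigra pars compacta, or SNpc, and in the neighbouring ventral tegmental area, or VTA. The protocol names TRAP, taken to mean translating ribosome affinity purification, a pull-down of the ribosome-bound RNA of one tagged cell type. The transgenic line and its promoter, the age and sex of the animals, any pooling of animals and any treatment are not stated in the labels. Each region had 6 deposited columns, and 5 libraries remained per region once columns with identical counts were joined (SNpc 4 with 5, and VTA 2 with 3, with 0 genes at different counts). Values below are listed for SNpc libraries 1, 2, 3, 4 and 6 and for VTA libraries 1, 2, 4, 5 and 6.

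Semaphorins are secreted or membrane-bound cues that repel or attract growing axons and adjust synapses in the adult brain. Plexins are their receptors and carry an intracellular domain that switches off small GTPases of the Ras and Rap type. Neuropilins are co-receptors that most secreted, class 3 semaphorins need in order to act through class A plexins, and they also bind vascular endothelial growth factor. In the midbrain, these cues help to sort the axons of dopaminergic neurons to the dorsal or the ventral striatum.

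The upstream sequences of 4 receptors are shown because these genes had the largest differences between regions among the neuropilins and plexins that kept their call in every alternative tried. Plxnc1 and Plxnd1 were added to the neuropilins after their values had been seen. Each line runs 5′ to 3′ on the gene's strand from 250 to 51 bases before the RefSeq start, on build GRCm38.p6, which is mm10, and capitals mark GC boxes (GGGCGG on either strand). The Nrp1 window is chr8:128358823-128359022 (plus strand), that of Nrp2 chr1:62703067-62703266 (plus), that of Plxnc1 chr10:94944896-94945095 (minus) and that of Plxnd1 chr6:115995056-115995255 (minus). In the GENCODE annotation Nrp1 starts earlier, at 128358604. The Nrp1 window thus lies inside that gene, between its exons, and the other windows lie before theirs.
Nrp1: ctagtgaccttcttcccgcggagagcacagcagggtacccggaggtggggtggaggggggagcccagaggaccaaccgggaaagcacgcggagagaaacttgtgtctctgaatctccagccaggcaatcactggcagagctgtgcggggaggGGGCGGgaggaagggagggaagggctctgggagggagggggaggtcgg
Nrp2: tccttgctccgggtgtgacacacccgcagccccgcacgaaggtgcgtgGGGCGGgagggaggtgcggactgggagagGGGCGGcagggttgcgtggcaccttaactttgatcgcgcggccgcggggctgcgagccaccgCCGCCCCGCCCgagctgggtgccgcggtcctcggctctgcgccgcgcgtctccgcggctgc
Plxnc1: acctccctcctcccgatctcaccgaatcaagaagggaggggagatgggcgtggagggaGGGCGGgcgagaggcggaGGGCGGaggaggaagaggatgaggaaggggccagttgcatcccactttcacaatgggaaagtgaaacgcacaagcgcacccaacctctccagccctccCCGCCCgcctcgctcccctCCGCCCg
Plxnd1: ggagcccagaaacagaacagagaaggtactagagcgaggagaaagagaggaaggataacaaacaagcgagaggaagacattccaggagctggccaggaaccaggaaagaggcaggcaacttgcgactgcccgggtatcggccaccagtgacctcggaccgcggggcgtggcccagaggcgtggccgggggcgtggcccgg

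Nrp2 and Plxnc1 held 4 GC boxes each, Nrp1 held 1 and Plxnd1 held 0. The 4 in Nrp2 include a pair that overlap by 1 base. RefSeq entries were present for 26 of the 31 genes, as 37 promoter windows of 200 bases, and 19 of these windows had a GC box, against 24.6% of all 32851 windows of the same length. The member windows had a median GC content of 62.5%, against 51.5% over all windows. Core motifs of 3 factors of midbrain dopaminergic neurons were also searched on both strands. None of the 37 windows held TAATCC (OTX2), TAATTA (LMX1A and LMX1B) or AAAGGTCA (NR4A2), which 5.22%, 4.19% and 1.08% of all windows held. These matches describe the letters in the windows only.

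Levels are given as CPM, counts scaled to a common library size. Total counts ran from 62356964 to 81393907 per library. The dopaminergic label was met by its markers, with summed levels of 10947 to 15937 CPM in SNpc and 5634 to 9231 CPM in VTA over 12 genes, and 11 of the 12 were higher in SNpc. RNA of other cells was present too. In SNpc library 4, 12 oligodendrocyte markers summed to 1529 CPM, against 322 to 600.2 CPM in the other SNpc libraries and 839 to 1028 CPM in the VTA libraries. VTA library 1 held 62.7 CPM of 10 endothelial markers, against 2.05 to 12.8 CPM in the SNpc libraries and 2.96 to 8.59 CPM in the other VTA libraries. Astrocyte markers summed to 286 to 519.7 CPM in SNpc and 508 to 664 CPM in VTA. Markers of oligodendrocyte precursors summed to 34.6 to 105 CPM in SNpc and 85.9 to 124 CPM in VTA. Both sums overlapped only through SNpc library 4. In the other SNpc libraries they were 286 to 329 CPM for astrocytes and 34.6 to 47.2 CPM for precursors. Most of the astrocyte sum was Slc1a2, at 276 ± 51.5 CPM in SNpc and 470.2 ± 49.0 CPM in VTA (SD). Of the 12 astrocyte markers, 4 were called higher in VTA and 8 were not called. Of the 8 precursor markers, 6 were called higher in VTA and 2 were not called. Markers of glutamatergic neurons summed to 30.6 to 92.4 CPM in SNpc and 118 to 164 CPM in VTA, without overlap, and those of GABAergic neurons to 92.7 to 378 CPM in SNpc and 186 to 303 CPM in VTA. Slc17a6 was the highest of the glutamatergic list, at 36.1 ± 21.7 CPM in SNpc and 93.4 ± 16.8 CPM in VTA (SD). Whether the glutamatergic markers came from other cells or from the dopaminergic neurons themselves was not tested. Of the SNpc libraries, library 4 had the highest sum in each of the 8 lists of other cell types. In such bulk libraries, fewer cells of a type and less RNA per cell cannot be told apart.

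**Figure D1:**
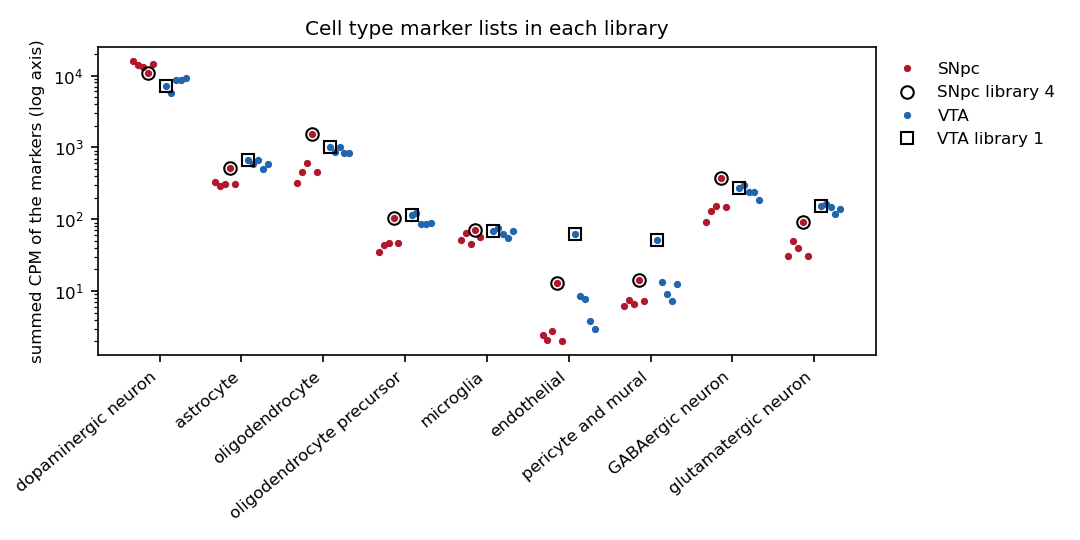
Summed CPM (scaled by trimmed mean of M values, log axis) of 9 cell type marker lists, 1 point per library, 5 libraries per region. SNpc library 4 is ringed and VTA library 1 is boxed. The summed oligodendrocyte markers are highest in SNpc library 4 (1529 CPM) and the summed endothelial markers in VTA library 1 (62.7 CPM).

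The receptors of the family were less abundant in SNpc than in VTA in nearly every case, whereas most ligands did not pass the test. Of the 31 genes, 30 passed the filter on low counts, all of them in every library of both regions, and Sema3g did not. Of these 30, 15 were higher in VTA and 0 were higher in SNpc (quasi-likelihood test of edgeR, with p adjusted by Benjamini-Hochberg over all 15685 genes tested and a threshold of 0.05). The background was 20.4% of all tested genes higher in VTA and 17.8% higher in SNpc, or 38.2% in either direction. At an unadjusted p under 0.05, 17 members were higher in VTA and 1 in SNpc, against 24.7% and 22.0% of all tested genes. DESeq2 called 16 members higher in VTA and 1 in SNpc, against 21.8% and 21.4% of the same genes. The 15 comprised both neuropilins, 8 of 9 plexins and 5 of 19 tested semaphorins. For 11 of them the CPM values of the regions did not overlap, where 14.6% of all tested genes were separate with VTA the higher and 26.6% in either direction. For 8 the difference was at least 2-fold, against a background of 10.2% with VTA the higher and 0.803% with SNpc the higher. The median log2 fold change, SNpc minus VTA (below, log2 change), was -0.88 over the 30 genes and -0.04 over all tested genes.

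These genes are long, and transcript length moved with the region. The median merged exon length was 7.80 kb for the 30 genes and 4.45 kb for all tested genes. Relative to the mean of all libraries, log2 CPM changed by -0.129 to -0.008 per doubling of exon length in the SNpc libraries and by 0.041 to 0.168 in the VTA libraries. With the trend on length and GC content removed from each library, 13 members were higher in VTA and 1 in SNpc, where 18.5% and 17.1% of all genes were called in these directions. When the mean of glial markers entered the fit as a covariate, 11 members were higher in VTA and 0 in SNpc, against 13.5% and 9.52% of all genes. This mean log2 CPM was 3.12 to 3.61 in VTA, 3.83 in SNpc library 4 and 1.97 to 2.45 in the other SNpc libraries. It moved with the region except in SNpc library 4, so this fit could hardly tell the 2 apart. A call that ended in it therefore does not show a part of glial RNA. The parts of length and of glial RNA in single genes were not otherwise tested.

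**Figure D2:**
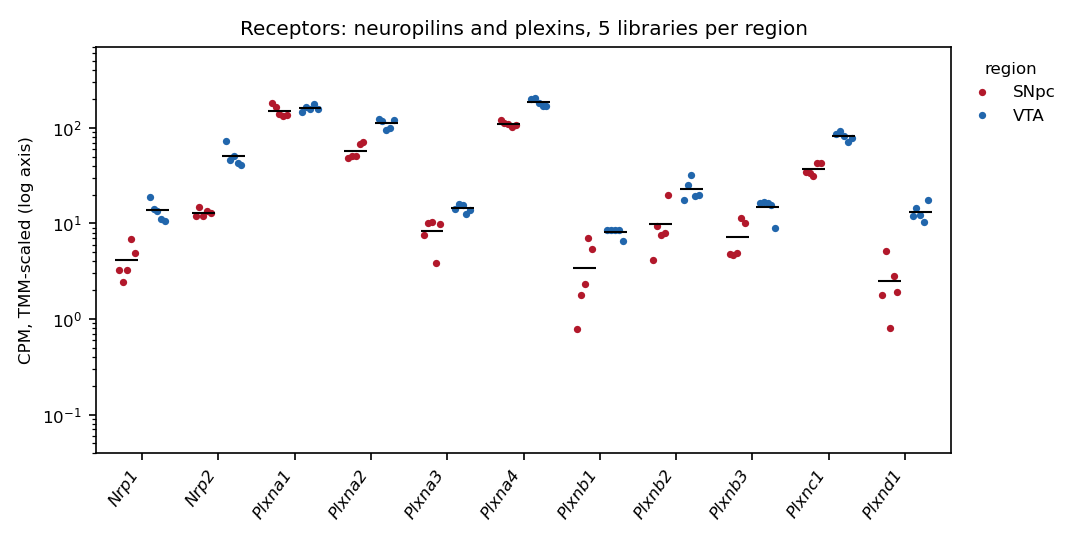
CPM (log axis) of the neuropilins and plexins, 1 point per library with 5 libraries per region, and the mean of each region as a black bar. Nrp1, Nrp2, Plxna2, Plxna3, Plxna4, Plxnc1 and Plxnd1 are separate between regions, with SNpc the lower. Plxna1, Plxnb1, Plxnb2 and Plxnb3 overlap.

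Both neuropilins were lower in SNpc, with no overlap between the regions. Nrp2, a co-receptor for Sema3f and Sema3c (Entrez 18187, mm10 chromosome 1, 62703285 to 62818695), had 11.8, 14.7, 11.8, 13.6 and 12.9 CPM in the SNpc libraries, against 72.0, 45.9, 51.2, 43.3 and 41.1 CPM in the VTA libraries. VTA library 1 was the highest, and the SNpc libraries lay close together. The mean was 13.0 ± 1.22 CPM in SNpc and 50.7 ± 12.5 CPM in VTA (SD, n = 5 each), a log2 change of -1.97 ± 0.16 (SE, edgeR adjusted p = 2.52e-07). Nrp1, the co-receptor for Sema3a (Entrez 18186, chromosome 8, 128358604 to 128503363), had 3.29, 2.43, 3.22, 6.79 and 4.89 CPM in the SNpc libraries, against 19.0, 14.3, 13.4, 11.2 and 10.5 CPM in the VTA libraries. SNpc library 4, the one rich in glial markers, came nearest to VTA. The log2 change was -1.73 ± 0.28 (SE, edgeR adjusted p = 0.000151). Over the alternatives the log2 change ran from -2.03 to -1.61 for Nrp2 and from -1.93 to -1.29 for Nrp1, and both calls held in each.

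Plxnc1 and Plxnd1, the only plexins of their classes, were both lower in SNpc. Plxnc1 is the receptor of Sema7a, and in the mouse it is known to keep axons of VTA neurons out of the Sema7a-rich dorsal striatum (Entrez 54712, chromosome 10, 94790866 to 94944835). Its level was 34.5, 33.8, 31.6, 42.6 and 42.7 CPM in the SNpc libraries, against 85.8, 92.2, 81.5, 71.3 and 78.9 CPM in the VTA libraries. The regions were clearly separate. The log2 change was -1.15 ± 0.12 (SE, edgeR adjusted p = 2.13e-06) and ran from -1.20 to -0.94 over the alternatives. Plxnd1, the receptor of Sema3e and also a gene of blood vessels (Entrez 67784, chromosome 6, 115954811 to 115995005), had the largest difference of the 30 genes. It stood at 1.80, 5.12, 0.798, 2.79 and 1.93 CPM in the SNpc libraries, against 11.9, 14.4, 12.3, 10.3 and 17.5 CPM in the VTA libraries. The VTA level was 5.34-fold higher, a log2 change of -2.42 ± 0.37 (SE, edgeR adjusted p = 0.000102). Without VTA library 1 and SNpc library 4 the log2 change was -2.44. Sums of vascular markers were high in VTA library 1. The other libraries overlapped between regions, for the endothelial sums only through SNpc library 4 (12.8 CPM). The other SNpc libraries had 2.05 to 2.80 CPM of endothelial markers, against 2.96 to 8.59 CPM in VTA libraries 2, 4, 5 and 6. Of the 6 endothelial markers tested, 2 were called higher in VTA and 4 were not called. The 8 pericyte and mural markers summed to 6.19 to 14.3 CPM in SNpc. In VTA they summed to 51.4 CPM in library 1 and to 7.25 to 13.3 CPM in the others. Of the 7 pericyte and mural markers tested, only 1 was called, the pericyte receptor Pdgfrb, named here after its values were seen. Pdgfrb had 0.875, 0.733, 0.250, 0.533 and 1.13 CPM in SNpc and 6.33, 4.85, 3.99, 3.98 and 6.40 CPM in VTA. The part of vascular cells in the level of Plxnd1 was not tested.

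Of the class A plexins, which transduce class 3 signals together with neuropilins, 3 of 4 were lower in SNpc. Plxna4, also a receptor of Sema6a (Entrez 243743, chromosome 6, 32144268 to 32588192), had 120.1, 113, 109, 103 and 107 CPM in the SNpc libraries, against 199, 207, 181, 168 and 171 CPM in the VTA libraries. Its log2 change was -0.75 ± 0.09 (SE, edgeR adjusted p = 1.08e-05), and with length and GC removed it was -0.35. Plxna2, the other Sema6a receptor (Entrez 18845, chromosome 1, 194618218 to 194816869), had 47.8, 50.1, 51.2, 68.2 and 70.3 CPM in the SNpc libraries, against 123, 118, 95.5, 100.1 and 121 CPM in the VTA libraries. It has the second longest exon sequence of the family, 17.2 kb, and its log2 change of -0.95 (SE 0.13, edgeR adjusted p = 2.73e-05) became -0.52 with length and GC removed, still called. Plxna3, a partner of Nrp2 in the response to Sema3f (Entrez 18846, chromosome X, 74329066 to 74344689), was less abundant, with 7.55, 10.2, 10.3, 3.84 and 9.87 CPM in the SNpc libraries, against 14.1, 16.0, 15.6, 12.4 and 13.7 CPM in the VTA libraries. Its regions did not overlap, but its call (-0.78, SE 0.24, edgeR adjusted p = 0.0164) ended with length and GC removed (-0.54, edgeR adjusted p = 0.0784).

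Plxna1 was the 1 plexin that was not called. This receptor, a partner of Nrp1 for Sema3a and a receptor of Sema6d, had 181, 165, 139, 132 and 136 CPM in the SNpc libraries, against 146, 166, 159, 179 and 157 CPM in the VTA libraries. The regions overlapped throughout, with a log2 change of -0.10 (SE 0.10, edgeR adjusted p = 0.48). Its sign turned without SNpc library 4 (0.01) and with length and GC removed (0.23), without a call in either case. About 10.7% of its exon sequence lies opposite the antisense transcript Gm26811, and whether the counts tell the strands apart is not stated.

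Class B plexins, which bind class 4 semaphorins and Sema5a, were all called lower in SNpc, but the regions overlapped in each of them. Plxnb2, the receptor of Sema4c (Entrez 140570, chromosome 15, 89155549 to 89180788), had 4.09, 9.44, 7.48, 7.98 and 19.7 CPM in the SNpc libraries, against 17.4, 25.1, 32.3, 19.5 and 19.7 CPM in the VTA libraries. SNpc library 6 alone reached the VTA range. The log2 change was -1.23 (SE 0.33, edgeR adjusted p = 0.00858). Plxnb3, which is reported to bind Sema5a (Entrez 140571, chromosome X, 73757090 to 73772514), had 4.77, 4.69, 4.90, 11.3 and 10.1 CPM in the SNpc libraries, against 16.2, 16.6, 16.4, 15.5 and 8.99 CPM in the VTA libraries. VTA library 6 lay within the SNpc range, and the log2 change was -1.04 (SE 0.28, edgeR adjusted p = 0.00765). Plxnb1, the receptor of Sema4d (Entrez 235611, chromosome 9, 109095389 to 109119917), had 0.779, 1.76, 2.32, 6.96 and 5.34 CPM in the SNpc libraries, against 8.45, 8.44, 8.50, 8.51 and 6.53 CPM in the VTA libraries. SNpc library 4 was the highest of its region and passed VTA library 6.

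The call of Plxnb1 was the least stable of the 15 and ended in 13 of 24 alternatives. This call (-1.24, SE 0.44, edgeR adjusted p = 0.0344) was lost, for example, without any one of SNpc libraries 2 and 3 (edgeR adjusted p = 0.0847 and 0.0821) and VTA libraries 1, 2, 4 and 5 (edgeR adjusted p = 0.0568, 0.0638, 0.0592 and 0.0604). With glial markers as covariate, the log2 changes of Plxnb1, Plxnb2 and Plxnb3 were -0.67, -1.34 and -0.69, and none of the 3 was called (edgeR adjusted p = 0.357, 0.0558 and 0.156). The log2 change of Plxnb2 did not shrink in this fit, and its SE was 0.47, against 0.33 without the covariate.

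**Figure D3:**
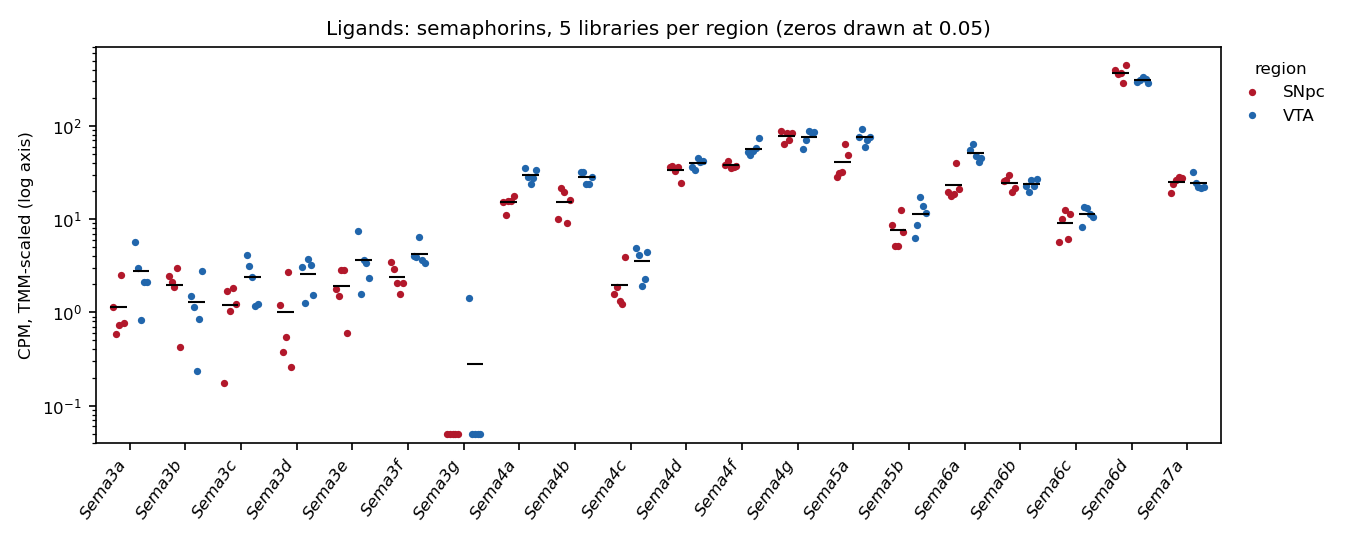
CPM (log axis) of the 20 semaphorins, 1 point per library with 5 libraries per region, the mean of each region as a black bar, and zeros drawn at 0.05. Sema4a, Sema4b, Sema4f and Sema6a are separate between regions with SNpc the lower, and Sema6d is the most abundant.

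Among the ligands, 3 of 6 class 4 semaphorins, which span the membrane, were lower in SNpc, without overlap. Sema4a, known as a signal between immune cells (Entrez 20351, chromosome 3, 88435959 to 88461182), had 15.2, 11.1, 15.6, 15.8 and 17.9 CPM in the SNpc libraries, against 34.9, 28.2, 23.5, 27.8 and 33.4 CPM in the VTA libraries. The log2 change was -0.97 (SE 0.16, edgeR adjusted p = 0.000185). Sema4b (Entrez 20352, chromosome 7, 80186841 to 80226527) had 9.99, 21.5, 19.3, 9.03 and 15.9 CPM in the SNpc libraries, against 32.2, 31.8, 23.9, 23.8 and 28.3 CPM in the VTA libraries. The SNpc libraries were spread more than 2-fold, yet all lay below VTA, with a log2 change of -0.89 (SE 0.22, edgeR adjusted p = 0.00442). Sema4f (Entrez 20355, chromosome 6, 82911885 to 82939769) had 37.7, 41.7, 35.6, 36.6 and 37.3 CPM in the SNpc libraries, against 52.6, 48.2, 53.5, 57.5 and 73.3 CPM in the VTA libraries. Its difference was small but separate, with a log2 change of -0.59 (SE 0.12, edgeR adjusted p = 0.00123). Of these 3, Sema4a kept its call in every alternative, and those of Sema4b and Sema4f ended against a minimum change of 1.5-fold, that of Sema4f also with the replicate block and length and GC removed.

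Sema6a, a membrane-bound ligand of Plxna2 and Plxna4 (Entrez 20358, chromosome 18, 47235598 to 47368870), had 19.4, 17.6, 18.7, 39.7 and 21.0 CPM in the SNpc libraries, against 55.7, 63.5, 48.0, 40.5 and 45.3 CPM in the VTA libraries. SNpc library 4 stood far above the other SNpc libraries and just below the lowest VTA library. The log2 change was -1.12 (SE 0.21, edgeR adjusted p = 0.000523), -1.34 without SNpc library 4 and -0.70 with glial markers as covariate, called in each. Sema5a, which restrains synapse formation in the hippocampus (Entrez 20356, chromosome 15, 32244810 to 32696341), showed a like pattern with overlap. It had 28.6, 31.1, 31.9, 64.3 and 48.9 CPM in the SNpc libraries, against 75.1, 93.0, 60.0, 70.8 and 75.9 CPM in the VTA libraries. Its call (-0.87, SE 0.20, edgeR adjusted p = 0.00354) ended with glial markers as covariate (-0.53, edgeR adjusted p = 0.0721). Sema5a has the longest exon sequence of the family, 18.7 kb. With length and GC removed its log2 change was -0.46, barely called (edgeR adjusted p = 0.0497). With the replicate block added to that fit it was -0.44 and not called (edgeR adjusted p = 0.117). In SNpc library 4, where both genes were highest for the region, the oligodendrocyte markers summed to 1529 CPM and 9 markers of GABAergic neurons to 378 CPM, against 92.7 to 151 CPM in the other SNpc libraries. The part of other cells in the levels of the 2 genes was not tested beyond the glial covariate.

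Sema6d, a ligand of Plxna1 and the most abundant of the 31 genes, leaned the other way. It had 392, 357, 369, 285 and 446 CPM in the SNpc libraries, against 295, 307, 336, 321 and 287 CPM in the VTA libraries (Entrez 214968, chromosome 2, 124089969 to 124667770). SNpc library 4 was the lowest of all 10 and the other SNpc libraries were above every VTA library. The log2 change of 0.26 (SE 0.11) missed the threshold (edgeR adjusted p = 0.0622). Without SNpc library 4 it was 0.40 and was called (edgeR adjusted p = 0.00175), as it was with length and GC removed (0.52, edgeR adjusted p = 0.000785). DESeq2 and the relative log expression scale also called it, each at 0.29, whereas with glial markers as covariate it was 0.03. Its paralog Sema6b averaged 24.5 ± 4.05 CPM in SNpc and 23.5 ± 3.08 CPM in VTA, and Sema6c 9.11 ± 3.08 CPM and 11.3 ± 2.15 CPM (SD, n = 5 each). Neither met the threshold (edgeR adjusted p = 0.794 and 0.336).

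Sema7a, the ligand of Plxnc1 that is held to the membrane by a lipid anchor, was not called. It had 19.2, 24.0, 26.3, 28.4 and 27.4 CPM in the SNpc libraries, against 32.0, 24.1, 22.2, 21.8 and 22.3 CPM in the VTA libraries (Entrez 20361, chromosome 9, 57940112 to 57962865). The regions overlapped, with a log2 change of 0.03 (SE 0.15, edgeR adjusted p = 0.889). Sema4g had 88.7, 63.6, 83.0, 70.8 and 83.4 CPM in the SNpc libraries, against 55.9, 70.8, 87.7, 83.5 and 86.2 CPM in the VTA libraries, a log2 change of 0.02 (edgeR adjusted p = 0.921). Sema4d, the ligand of Plxnb1, had 36.4, 36.8, 33.1, 36.6 and 24.4 CPM in the SNpc libraries, against 36.6, 34.0, 44.8, 40.8 and 41.5 CPM in the VTA libraries. Its log2 change of -0.24 (SE 0.14) missed the threshold (edgeR adjusted p = 0.178).

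Sema6b, called in no alternative, had 25.6, 26.1, 29.7, 19.4 and 21.6 CPM in the SNpc libraries, against 22.5, 19.5, 26.0, 22.4 and 27.2 CPM in the VTA libraries. Sema6c, likewise uncalled, had 5.66, 9.96, 12.4, 6.09 and 11.4 CPM in the SNpc libraries, against 8.15, 13.6, 13.0, 11.4 and 10.6 CPM in the VTA libraries. Sema5b had 8.59, 5.12, 5.20, 12.5 and 7.22 CPM in the SNpc libraries, against 6.26, 8.56, 17.1, 13.8 and 11.5 CPM in the VTA libraries. All 3 overlapped between regions, and the log2 change of Sema5b was -0.56 (SE 0.30, edgeR adjusted p = 0.146). Without SNpc library 4, its highest SNpc library, that of Sema5b was -0.75 and was called (edgeR adjusted p = 0.0472), whereas with glial markers as covariate it was -0.33 (edgeR adjusted p = 0.548). Sema4c, the ligand of Plxnb2, averaged 1.98 ± 1.09 CPM in SNpc and 3.52 ± 1.34 CPM in VTA (SD, n = 5 each, edgeR adjusted p = 0.146) and was called without SNpc library 6 (-1.23, edgeR adjusted p = 0.038), but not without both SNpc library 4 and VTA library 1 (-0.50, edgeR adjusted p = 0.436).

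The secreted class 3 semaphorins, the ligands that use the neuropilins, were scarce in both regions. The 6 that were tested had 11 to 649 counts per library, and none was called. At an unadjusted p under 0.05, 2 of the 6 were lower in SNpc, a share near the 24.7% of all tested genes, and DESeq2 called 1, Sema3f. Sema3a, the classical repellent that acts through Nrp1, averaged 1.15 ± 0.796 CPM in SNpc and 2.77 ± 1.84 CPM in VTA (SD, n = 5 each), a log2 change of -1.26 (edgeR adjusted p = 0.0977). It was called without SNpc library 4 (-1.72, edgeR adjusted p = 0.0289) and without VTA library 4 (-1.50, edgeR adjusted p = 0.0483). It was not called without VTA library 1 (-0.81, edgeR adjusted p = 0.335), without both SNpc library 4 and VTA library 1 (-1.27, edgeR adjusted p = 0.121) or with glial markers as covariate (-0.62, edgeR adjusted p = 0.581). Sema3f, the ligand of Nrp2, averaged 2.42 ± 0.769 CPM in SNpc and 4.27 ± 1.21 CPM in VTA (edgeR adjusted p = 0.0777). Sema3e, the ligand of Plxnd1, averaged 1.91 ± 0.947 CPM in SNpc and 3.68 ± 2.29 CPM in VTA (edgeR adjusted p = 0.145).

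Among the other class 3 genes, the directions were mixed and none passed the test. Sema3d averaged 1.01 ± 1.01 CPM in SNpc and 2.57 ± 1.10 CPM in VTA (edgeR adjusted p = 0.113), with a call without SNpc library 4 (-2.05, edgeR adjusted p = 0.0161) and none with glial markers as covariate (-0.79, edgeR adjusted p = 0.476). Sema3c averaged 1.19 ± 0.659 CPM in SNpc and 2.40 ± 1.26 CPM in VTA (edgeR adjusted p = 0.205). Sema3b was the reverse, with 1.97 ± 0.966 CPM in SNpc and 1.30 ± 0.949 CPM in VTA (edgeR adjusted p = 0.499). Sema3g had 0 counts in all 5 SNpc libraries and 122 counts in VTA library 1, with 0 in the other VTA libraries. A count of 0 allows up to 3 counts, or 0.0432 to 0.0481 CPM in these libraries, counting error only. VTA library 1 is also the library with 62.7 CPM of endothelial markers, and Sema3g is known from endothelium. The part of these cells in its count was not tested.

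Levels of different genes were compared per kb of merged exon length. Sema6d was highest in both regions, at 35.0 CPM per kb in SNpc and 29.3 CPM per kb in VTA, and Plxna1 was next, at 16.6 CPM per kb in SNpc and 17.8 CPM per kb in VTA. Thus the ligand and the receptor with the highest levels were both among the genes that were not called. Sema4g (8.99 CPM per kb in SNpc), Plxna4 (7.82), Sema7a (7.59) and Sema4f (7.14) followed in SNpc, whereas Plxna4 (13.1 CPM per kb in VTA), Sema4f (10.8), Plxnc1 (9.82) and Sema4g (8.87) followed in VTA. Plxnc1 took rank 8 in SNpc and rank 5 in VTA, and Plxnd1 rank 26 in SNpc and rank 20 in VTA. Summed over the 9 plexins, the level was 36.4 ± 2.10 CPM per kb in SNpc and 57.0 ± 2.79 CPM per kb in VTA (SD, n = 5 each). The 2 neuropilins summed to 1.52 ± 0.213 CPM per kb in SNpc and 5.68 ± 1.39 CPM per kb in VTA. For the 20 semaphorins the sum was 84.1 ± 5.09 CPM per kb in SNpc, with a range of 77.9 to 91.6, and 94.3 ± 1.97 CPM per kb in VTA, with a range of 92.4 to 96.7.

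**Figure D4:**
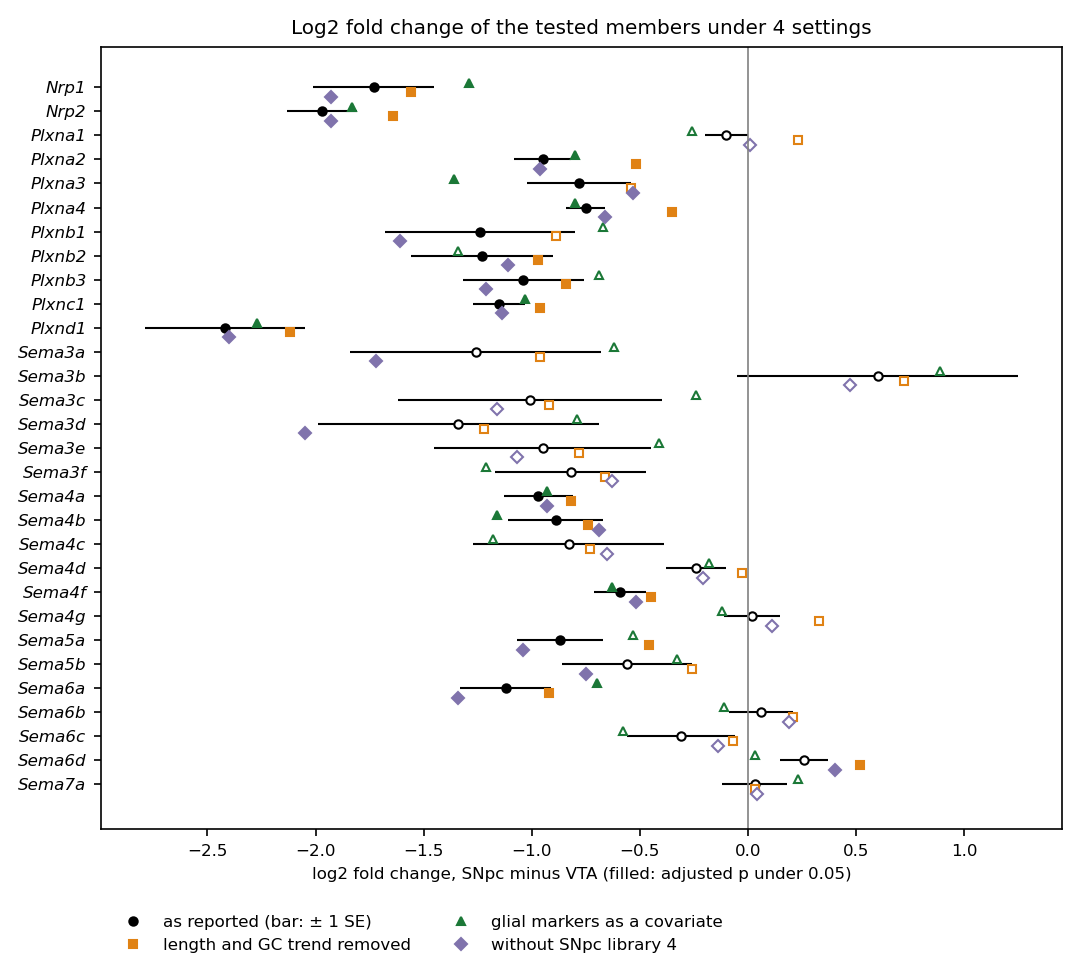
Log2 fold change, SNpc minus VTA, of the 30 tested genes as reported (circles with ± 1 SE) and under 3 alternatives, with filled symbols where the adjusted p was under 0.05. Nrp1, Nrp2, Plxna2, Plxna4, Plxnc1, Plxnd1, Sema4a, Sema4b, Sema4f and Sema6a stay below 0 and filled in all 4 settings shown. Plxna1, Sema4g and Sema6b fall on both sides of 0.

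The partners of the family inside and beside the cell were called in both directions. Of 65 listed partners, 64 were tested, with 18 higher in VTA and 12 higher in SNpc, against 20.4% and 17.8% of all tested genes, and a median log2 change of -0.18. Of 20 co-receptors and other ligands, 5 were higher in VTA and 1 in SNpc. Vegfa, the growth factor that binds Nrp1, averaged 22.9 ± 4.41 CPM in SNpc and 49.4 ± 2.33 CPM in VTA (SD, n = 5 each), a log2 change of -1.11 (edgeR adjusted p = 1.35e-05). Flt4, a receptor of vascular endothelial growth factors that pairs with Nrp2, was higher in SNpc, with 11.6 ± 4.34 CPM in SNpc and 4.06 ± 0.833 CPM in VTA, although its regions overlapped (1.51, edgeR adjusted p = 0.000639). Mst1r, a receptor kinase that associates with class B plexins, was scarce, at 0.208 ± 0.160 CPM in SNpc and 1.11 ± 0.436 CPM in VTA (-2.40, edgeR adjusted p = 0.0246). The Mst1r call ended without VTA library 4 or 6 (edgeR adjusted p = 0.0642 and 0.0576), and with glial markers as covariate the calls of Mst1r (-2.20, edgeR adjusted p = 0.24) and Flt4 (0.87, edgeR adjusted p = 0.073) both ended. L1cam, the adhesion partner of Nrp1, had the highest CPM of this list and was not called, with 145 ± 13.2 CPM in SNpc and 129.7 ± 8.66 CPM in VTA (edgeR adjusted p = 0.183).

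For the lists below, the background was again 20.4% of all tested genes higher in VTA and 17.8% higher in SNpc. Among 20 GTPases and their regulators, 6 were higher in VTA and 5 in SNpc. The smallest p among them were those of Grlf1 (current symbol Arhgap35), which turns off RhoA (-0.65, edgeR adjusted p = 4.71e-05), Farp2, an exchange factor that class A plexins release (-0.82, edgeR adjusted p = 6.53e-05), and Rnd3, a RhoA antagonist (-1.26, edgeR adjusted p = 0.000466). About 19.4% of the exon sequence of Farp2 overlaps Stk25 on the other strand, so its count is uncertain. Cytoskeletal effectors gave 3 of 15 in each direction. Mical2, which oxidises actin (-0.79, edgeR adjusted p = 4.08e-05), and Dync1h1, the heavy chain of dynein (-0.71, edgeR adjusted p = 0.000618), were lower in SNpc. Cfl1, the actin-severing cofilin (0.66, edgeR adjusted p = 7.31e-05), and Dpysl2, a mediator of growth cone collapse by Sema3a (0.30, edgeR adjusted p = 0.00613), were higher in SNpc. About 16.5% of the exon sequence of Cfl1 overlaps Snx32 on the other strand, so the count of Cfl1 is uncertain too. Of 9 tested kinases, 4 were higher in VTA and 3 in SNpc. Rock1 (-1.20), Abl1 (-0.86) and Gsk3b (-0.33) were lower in SNpc, and the protein kinase A subunit Prkaca (0.38) was higher (edgeR adjusted p = 0.000106, 0.000128, 0.00804 and 0.00213). The calls of Dync1h1 (-0.24, edgeR adjusted p = 0.0865) and Gsk3b (-0.12, edgeR adjusted p = 0.229) ended with length and GC removed, and those of Dpysl2 (0.24, edgeR adjusted p = 0.0736) and Prkaca (0.27, edgeR adjusted p = 0.0566) with glial markers as covariate. With length and GC removed, 16 partners were higher in SNpc and 11 in VTA, against 17.1% and 18.5% of all genes. With glial markers as covariate, 2 were higher in SNpc and 12 in VTA, against 9.52% and 13.5% of all genes.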

How the data were processed

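RNA was measured in libraries of midbrain dopaminergic neurons, and the authors deposited raw read counts per gene, which are whole numbers that had not been normalized. Alignment used TopHat2 2.0.8 and mm10, per the submitters' processing notes. Counting program, annotation, strand setting and filters were not given in the sources used here, so reads of the 7 members whose exons overlap another gene may have been assigned in either way. Amplification from a small RNA input precedes the library step, per the labels' protocols, and can favour some transcript lengths.

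Columns with identical counts were joined, which left 10 libraries. Every other pair within a region differed (chi-square per gene of 43.1 to 148). Whether the libraries are from separate animals is not stated, so a p-value reflects the spread among these libraries, possibly a technical one. EdgeR 4.0.16 in R 4.3.3 was fitted on the whole table after filterByExpr, with TMM scaling and robust quasi-likelihood F tests of region. It was tested on simulated data, which held no trend on length and no mix of cell types that differed between libraries. Benjamini-Hochberg adjusted p under 0.05 was called. CPM values are TMM-scaled, and a standard error (SE) is that of the log2 fold change. Exon lengths are merged GENCODE M21 exons (GRCm38), found for all 31 members. The trend removed for length and GC was a spline per library (4 and 3 degrees of freedom), with the library scale kept unless stated. DESeq2 1.42.0 and other scales, filters and library subsets were alternatives.

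The members and lists were chosen with earlier results of these data known. Every called member, and every uncalled one with a mean of at least 10 CPM in either region, is given by library. Each partner list is shown by its called genes of lowest p, 3 at most, and by its most abundant gene. Protein sequences were not used here. The rule for printed promoters (neuropilins and the most abundant called member in each direction) gave Nrp1, Nrp2 and Plxna4, and no sequence of Plxna4 is printed.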

Additional observations from a re-analysis of the deposited data

Results flagged for a closer look

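In 8 of 62 sets of 5 libraries (31 genes in 2 regions), 1 library stood apart from the other 4 by more than Dixon's criterion allows, where chance gives about 1 set in 20. SNpc library 4 stood above its region for Sema6a (39.7 CPM, against 17.6 to 21.0 CPM in the others) and Sema3a (2.53 CPM, against 0.587 to 1.15 CPM). In SNpc library 6, Sema4c was high at 3.88 CPM, against 1.22 to 1.86 CPM. VTA library 1 was high for Sema7a (32.0 CPM, against 21.8 to 24.1 CPM) and was the only library with counts of Sema3g (1.41 CPM, against 0 in the others). In VTA library 4, Sema3f was high at 6.39 CPM, against 3.37 to 3.98 CPM. VTA library 6 was low for Plxnb3 (8.99 CPM, against 15.5 to 16.6 CPM) and Plxnb1 (6.53 CPM, against 8.44 to 8.51 CPM).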

How the results depend on the processing

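Of 24 alternatives, all kept the calls of Nrp1, Nrp2, Plxna2, Plxnc1, Plxnd1, Sema4a and Sema6a. Leaving out 1 library gave 14 to 18 members higher in VTA and 0 to 1 higher in SNpc. The 15 members higher in VTA became 7 against a minimum change of 1.5-fold. In place of 0 members higher in SNpc there was 1 (Sema6d) with relative log expression factors, with DESeq2, without SNpc library 4, without both SNpc library 4 and VTA library 1 (chosen after seeing the data), and with length and GC removed, with or without the replicate block, and 2 (with Sema4g) when the scale was refitted. Over all genes, 2793 higher in SNpc became 1789 with the replicate block, 1723 with the block and length and GC removed, 1493 with the glial covariate and 94 against 1.5-fold, and 3203 higher in VTA became 2123 and 1146 in the last 2. Partners higher in SNpc (12) became 6, 2 and 1 with the block, the glial covariate and 1.5-fold. Partners higher in VTA (18) became 11 with length and GC removed under either scale, 7 with the block added, and 3 against 1.5-fold.

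Signs turned only in 4 members with no call in either case. Plxna1 was 0.23, 0.25 and 0.29 with length and GC removed (scale kept, refitted, and with the block) and -0.17 to 0.01 without 1 library. Sema4g was -0.03 with library totals, -0.12 with the glial covariate and -0.07 to 0.11 without 1 library. Sema6b was -0.04 with and without the block on its 8 libraries, -0.11 with the glial covariate and -0.02 to 0.19 without 1 library. Sema7a was -0.02 with library totals and with and without the block, -0.03 with the block and length and GC removed, and -0.01 to 0.15 without 1 library. The causes were not tested. Same-numbered libraries did not deviate together (correlations of -0.07 to 0.04 over 4 numbers, and 1 of 4 SNpc libraries correlated best with its own number). Such values do not show whether same-numbered libraries came from the same animals. SNpc library 4 also stands for column 5, and VTA library 2 for column 3, so their partners in the block and in this check may be wrong. The block gave 13 members higher in VTA, against 14 in the same libraries without it.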
